A study of Mus musculus with 9 samples.

Results

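The HoxB cluster is 1 of the mammalian groups of homeobox genes, and its occupancy by the homeodomain proteins TGIF1 and MEIS1 was read from chromatin immunoprecipitation followed by sequencing (ChIP-seq). All peaks that touched a window of 400 kb on chromosome 11, from 95950000 to 96350000 (mm9), were taken from 8 peak lists. The rule uses position alone, though it was set with earlier results of these data known. They numbered 33 of the 182249 peaks in all lists, 32 of MEIS1 and 1 of TGIF1. The cells were c-kit+ bone marrow cells of C57BL/6 mice transformed with the leukaemia fusion oncogene MLL-AF9. Every group also carried pMIG-TGIF1-ER, in which TGIF1 is joined to the estrogen receptor and becomes active when the ligand 4-hydroxytamoxifen (4-OHT) is given. The 4 groups were TGIF1 EtOH, TGIF1 4-OHT, MEIS1 EtOH and MEIS1 4-OHT, each with 2 libraries, the 4-OHT groups after 20 h of 4-OHT and the EtOH groups with ethanol, its solvent, in its place. The antibodies are labelled TGIF and Meis, so the cells' own TGIF1 and TGIF1-ER cannot be told apart. A 9th sample, an IgG precipitation, was not analysed here, so the signal any antibody would give in this window was not measured. Cells given 4-OHT without TGIF1-ER were not part of the groups, and effects of 4-OHT and of active TGIF1 cannot be told apart. The labels do not tell separate cultures from repeat libraries of 1 culture, and differences between the 2 libraries of a group may be technical.

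HOX proteins are transcription factors that set position along the body axis, and in the blood system they act in stem and progenitor cells, where their levels fall as cells mature. Hoxb4 is known for expanding haematopoietic stem cells when it is overexpressed, Hoxb3 acts in part redundantly with it, Hoxb5 is used as a marker of long-term stem cells, and Hoxb6 and Hoxb2 are further members expressed in early blood cells. MEIS1 is a cofactor of HOX and PBX proteins, and leukaemias with MLL fusions are known for high levels of MEIS1 and of HoxA genes. TGIF1 belongs to the same TALE class of homeodomain proteins as MEIS1, recognises a closely related core sequence, and recruits co-repressors.

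In the RefSeq annotation of another mouse build, GRCm38.p6, the cluster holds 10 Hoxb genes in the order Hoxb13, Hoxb9, Hoxb8, Hoxb7, Hoxb6, Hoxb5, Hoxb3, Hoxb4, Hoxb2 and Hoxb1 by their start positions, with the miRNA genes Mir196a-1 before Hoxb9 and Mir10a before Hoxb4. Hoxb5os and Hoxb3os, both lncRNA genes, lie among them. An annotation of mm9 was not used here, and coordinates were not carried from one build to the other. That the window spans the cluster on mm9 comes with the rule and was not checked here. Peaks are therefore described by their place in the window, and none is assigned to Hoxb2, Hoxb3, Hoxb4, Hoxb5, Hoxb6 or another gene. For the same reason exon, intron or UTR and the underlying sequence are not given.

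MEIS1 occupied the HoxB window under both treatments, and the number of its peaks was the same with and without 4-OHT. MEIS1 EtOH replicate 1 had 5 peaks and replicate 2 had 11. MEIS1 4-OHT replicate 1 also had 5 and replicate 2 also had 11. The groups overlapped fully, with a mean of 8 ± 4.24 peaks (SD, n = 2) in each, and the difference was 0 (two-sided exact permutation p = 1, where 2 against 2 libraries cannot give less than 0.333). In both groups the longer list had more peaks here: the lists held 26254 and 43564 peaks under EtOH and 21173 and 48829 under 4-OHT. Per 10000 peaks of a list, the window held 1.90 and 2.53 under EtOH and 2.36 and 2.25 under 4-OHT. The 4-OHT mean of 2.31 ± 0.0769 lay above the EtOH mean of 2.21 ± 0.439 (SD, n = 2 each) by 0.0924, less than the spread between the EtOH libraries (two-sided exact permutation p = 1). That sign turned without MEIS1 EtOH replicate 1, where the difference was -0.22. The lists give positions only, so the number of reads behind a peak is unknown, and a peak that is missing from a list does not show that the protein was absent.

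TGIF1 had only 1 peak in the same window. For each list taken alone, counts this low were common among windows of this size, as given below. Neither TGIF1 EtOH library, with 2764 and 592 peaks in all, had a peak in it. TGIF1 4-OHT replicate 1 had 1 peak among 12141, and TGIF1 4-OHT replicate 2 had none among 26932, although its list was the longer one. The mean was 0 under EtOH and 0.5 ± 0.707 under 4-OHT (SD, n = 2 each; two-sided exact permutation p = 1). The difference was 0 without TGIF1 4-OHT replicate 1, and 2.5 in a window widened by 50 kb at each end, which takes in TGIF1 4-OHT peaks just outside the low end. A count of 0 among 26932 allows up to 1.37 peaks per 10000 of the list (exact 95% limit, counting error only), which is below the 4 MEIS1 values of 1.90 to 2.53 but inside the exact interval of each, whose lower limits reach at most 1.26.

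**Figure D1:**
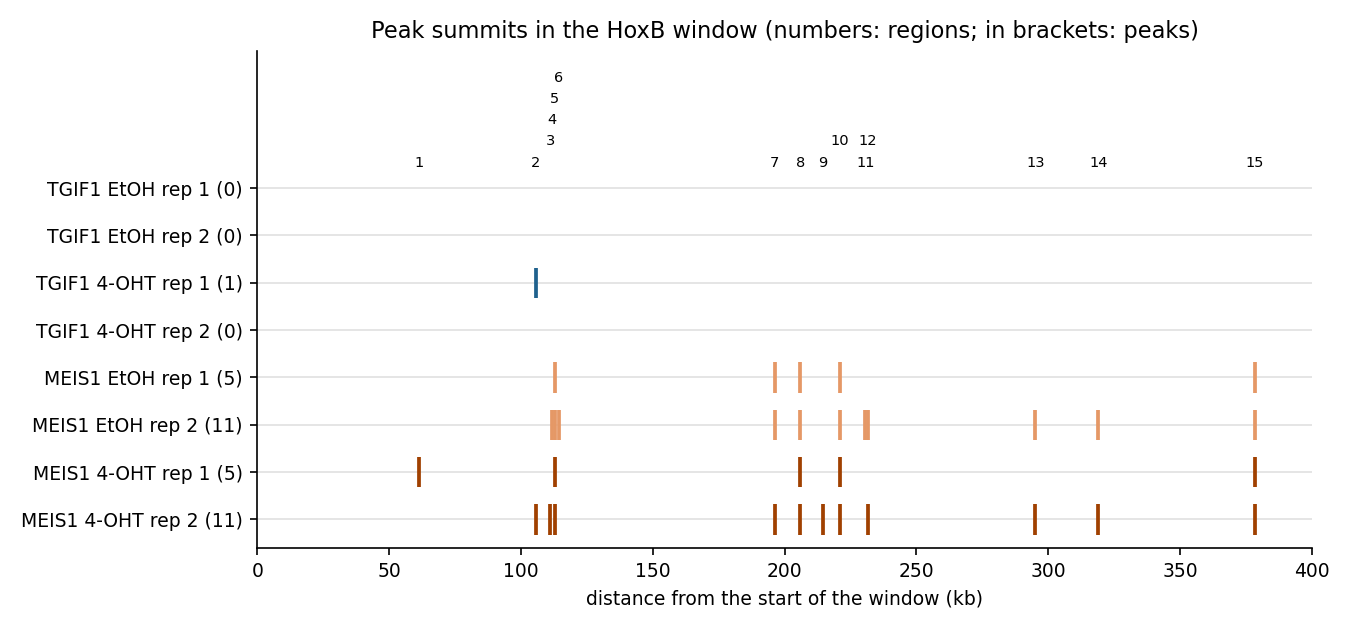
Summits of all 33 peaks in the HoxB window, by library (rows, with the number of peaks in brackets) and distance from the start of the window in kb. Each tick is 1 peak, drawn at its summit and wider than the peak itself, and the numbers above are the 15 regions. TGIF1 has 1 tick in 4 rows, and MEIS1 has 5 in each replicate 1 row and 11 in each replicate 2 row.

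Genome-wide, windows with this many MEIS1 peaks usually held TGIF1 peaks after induction. The genome was cut into 6576 other windows of 400 kb from the chromosome starts, and the HoxB window was set beside them as a description. Stretches where reads cannot be placed were not taken out. Of these windows, 1989 had no peak of MEIS1 EtOH replicate 2 and none of TGIF1 4-OHT replicate 2, which affects the shares of all windows below. The median window held 2 peaks of MEIS1 EtOH replicate 1, 3 of MEIS1 EtOH replicate 2, 2 of MEIS1 4-OHT replicate 1 and 4 of MEIS1 4-OHT replicate 2. At least as many MEIS1 peaks as in the HoxB window were present in 25.4 to 33.6% of the windows, depending on the list, so the locus lay in the upper part but was not extreme. No TGIF1 4-OHT replicate 2 peak was present in 40.7% of all windows, many of which also had no MEIS1 peak. For TGIF1 4-OHT replicate 1, 51.7% of all windows had no peak, and 48.3% had at least 1, as the HoxB window did. For TGIF1 EtOH replicates 1 and 2, 75.5 and 92.6% of all windows had no peak, so the lack of one here was ordinary. Of the 820 windows with 9 to 13 peaks of MEIS1 EtOH replicate 2, a range set around the 11 of the HoxB window after its value was seen, 3 (0.366%) lacked a TGIF1 4-OHT replicate 2 peak, and the median number was 6. The median for TGIF1 4-OHT replicate 1 in these windows was 3, and the share with at most 1 of its peaks was not counted alone. With the windows moved by 200 kb, 0 of 781 such windows lacked a TGIF1 4-OHT replicate 2 peak. The HoxB window itself was not moved, and a TGIF1 4-OHT replicate 2 peak ended 5.66 kb before it. No other pair of a MEIS1 and a TGIF1 list was counted in this way, so the low share holds for this pair only. Neighbouring windows and lists of the same cells are not independent, and no test was made of these shares.

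**Figure D2:**
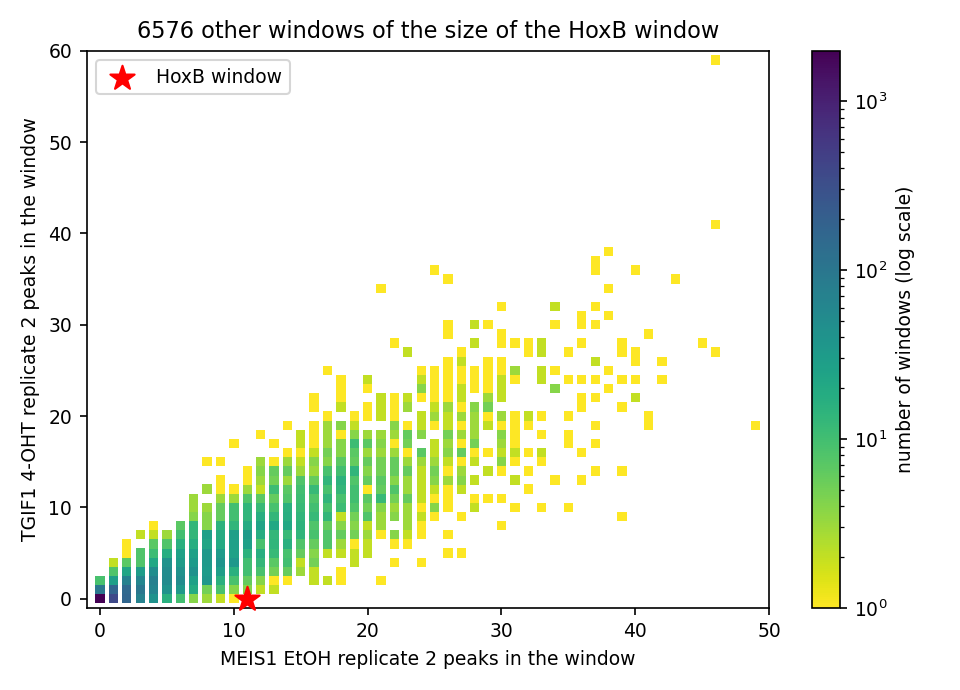
Number of TGIF1 4-OHT replicate 2 peaks against the number of MEIS1 EtOH replicate 2 peaks in 6576 other windows of 400 kb. Colour gives the number of windows at each pair of values on a log scale, and the star marks the HoxB window, which lies at the lower edge with 11 MEIS1 peaks and 0 TGIF1 peaks.

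The stretch without TGIF1 4-OHT replicate 2 peaks passed both ends of the window, further on the high side. In TGIF1 4-OHT replicate 2 no peak lay between 95944338 and 96633720, a gap of 689 kb, and 2.70% of the 26912 gaps between neighbouring peaks of that list were at least as long (median 17.9 kb). TGIF1 4-OHT replicate 1 had a gap of 118 kb before its peak in the window and of 578 kb after it, and 7.54% of its 12121 gaps were at least as long as the second (median 44.3 kb). These shares count gaps by number. A long gap covers more of the genome, so a place picked by position falls into such gaps more often than they state. Just outside the low end of the window, the region from 95936681 to 95937691 carried peaks in 6 lists, both TGIF1 4-OHT and all 4 MEIS1 libraries. The next peak of TGIF1 4-OHT replicate 2, from 95943984 to 95944337, was found in that list alone and ended 5.66 kb before the window. On the high side the nearest TGIF1 4-OHT peaks began 284 kb beyond the window in both libraries. MEIS1 peaks resumed beyond that end after 83.9 kb in MEIS1 4-OHT replicate 2, and after 154 to 165 kb in the other 3 MEIS1 lists. The nearest TGIF1 EtOH peaks were 289 kb away on the low side in replicate 1 and 1256 kb away on the high side in replicate 2.

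Peaks that overlapped across the 8 lists by at least 1 bp were merged, which gave 15 regions, numbered here by position. All 15 had a MEIS1 peak, and 1 had a TGIF1 peak. MEIS1 was found in all 4 MEIS1 lists at 4 regions, in 3 lists at 1 region, in 2 lists at 3 regions and in a single list at 7 regions. Over the 55113 merged MEIS1 regions of the genome, 28.8% were in all 4 lists, 17.2% in 3, 28.1% in 2 and 26.0% in 1. In the window the share in all 4 lists was 26.7% (exact 95% interval 7.79 to 55.1%) and the share in 1 list was 46.7% (21.3 to 73.4%), and both intervals hold the genome-wide values. The intervals cover counting error only, and regions of 1 locus are not replicates.

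Regions fell unevenly along the window. The first 100 kb of the window held 1 region, the next pair of 100 kb stretches held 6 each, and the last held 2. Regions 2 to 6 lay within 9182 bp, from 96055204 to 96064385, with 9 peaks between them. The gaps before regions 4, 5 and 6 were only 70, 376 and 431 bp. The number of regions here thus depends on merging at 1 bp of overlap, and whether they form 1 broader stretch was not tested. Such crowding, at least 5 regions within 10 kb, applied to 5.68% of the 60709 merged regions of all lists, and this measure was chosen after the positions were seen. An empty stretch of 81.6 kb followed before region 7. Regions 7 to 12 came next, within 35785 bp, and gaps of 63.0, 23.1 and 58.8 kb separated regions 12, 13, 14 and 15.

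The single region shared by both proteins was region 2, from 96055204 to 96055824. Its TGIF1 peak, in TGIF1 4-OHT replicate 1, ran from 96055431 to 96055764 and was 334 bp long, longer than 14.7% of the peaks in a list whose median was 438 bp. TGIF1 4-OHT replicate 2 had no peak there, which was so for 3.52% of the replicate 1 peaks genome-wide. That share covers peaks of all lengths, and the share among peaks as short as this one was not counted. MEIS1 was called at region 2 in MEIS1 4-OHT replicate 2 alone, with a peak of 621 bp at the 61.4th length percentile of its list. The MEIS1 summit at 96055564 and the TGIF1 summit at 96055591 were 27 bp apart, beside a median of 30 bp over the 9878 overlapping pairs of peaks of these 2 lists. Neither protein was thus called in both of its 4-OHT libraries at region 2, and neither was called under EtOH.

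No MEIS1 region found in 2 or more MEIS1 lists carried a peak of any of the 4 TGIF1 libraries. Regions called reproducible, because each of a group's 2 libraries had a peak there, numbered 5 for MEIS1 EtOH (regions 5, 7, 8, 10 and 15) and 4 for MEIS1 4-OHT (regions 5, 8, 10 and 15). TGIF1 4-OHT had no reproducible region in the window, so the share of such regions with MEIS1, 60.9% of 11143 genome-wide, had no counterpart. A reproducible TGIF1 4-OHT region overlapped 0 of the 5 MEIS1 EtOH regions (exact 95% interval 0 to 52.2%), beside 29.8% of 22793 genome-wide, and 0 of the 4 MEIS1 4-OHT regions (0 to 60.2%), beside 28.8% of 19864. With so few regions a share like that of the genome could not be told from 0. Counting a TGIF1 peak in either 4-OHT library, 1 of the 15 MEIS1 regions (6.67%, exact 95% interval 0.169 to 31.9%) was overlapped, beside 38.5% of 55113. The interval ends below the genome-wide value, but neighbouring regions of 1 locus are not independent draws and no test was made. Genome-wide, the share rose with recurrence of MEIS1, from 18.1% of regions in 1 MEIS1 list through 36.9% in 2 and 45.7% in 3 to 54.3% of those in all 4. In the window the overlap was 1 of 7, 0 of 3, 0 of 1 and 0 of 4 in the same order. The nearest TGIF1 4-OHT peak of either library lay 6.59 kb from region 5, 90.2 kb from region 7, 99.9 kb from region 8, 115 kb from region 10 and 273 kb from region 15. No region of the window had a TGIF1 EtOH peak, beside 4.58% of 60709 merged regions.

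MEIS1 regions that recurred within a treatment were also found under the other. Of the 5 reproducible MEIS1 EtOH regions, 0 lacked a MEIS1 4-OHT peak (exact 95% interval 0 to 52.2%), beside 2.91% genome-wide. Of the 4 reproducible MEIS1 4-OHT regions, 0 lacked a MEIS1 EtOH peak (0 to 60.2%), beside 3.22%. These zeros lay near the background and rest on few regions. Without MEIS1 4-OHT replicate 2, region 7 would count as absent under 4-OHT. Between libraries of the same number, 4 of the 5 peaks of MEIS1 EtOH replicate 1 overlapped MEIS1 4-OHT replicate 1, beside 64.2% genome-wide, and 8 of the 11 of MEIS1 EtOH replicate 2 overlapped MEIS1 4-OHT replicate 2, beside 88.6%. From the 4-OHT side the counts were the same, 4 of 5 beside 78.7% and 8 of 11 beside 79.9%. Within EtOH, all 5 peaks of replicate 1 overlapped replicate 2, beside 90.8%. Within 4-OHT, 4 of 5 did, beside 95.7%, the exception being region 1.

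Among the regions in all 4 MEIS1 lists, region 8 had the highest mean length percentile. It ran from 96155682 to 96156358, near the middle of the window. Its peaks were 467 and 644 bp long in MEIS1 EtOH replicates 1 and 2 and 427 and 649 bp in MEIS1 4-OHT replicates 1 and 2. Peak lengths depend on the list, whose medians were 362, 633, 442 and 571 bp in that order. As percentiles of their own lists the peaks stood at 79.1 and 52.6 under EtOH and at 44.9 and 66.2 under 4-OHT, so the treatments overlapped. The 4 summits lay within 9 bp, between 96155977 and 96155986.

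Region 5, from 96062354 to 96063224, was the recurrent member of the crowded group. Its peaks stood at the 60.2 and 80.7 percentiles under EtOH and at 18.8 and 75.5 under 4-OHT, with lengths of 392, 871, 352 and 728 bp in the order given above. Replicate 2 exceeded replicate 1 in both treatments, and the treatments overlapped. The summits of MEIS1 EtOH replicate 2 and both 4-OHT libraries lay between 96062883 and 96062888, and that of MEIS1 EtOH replicate 1 lay at 96062912. Regions 3, 4 and 6 around it were each in 1 list of a replicate 2 library, region 3 in MEIS1 4-OHT and regions 4 and 6 in MEIS1 EtOH.

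Region 10, from 96170621 to 96171244, consisted of shorter peaks. Lengths were 220 and 617 bp under EtOH and 399 and 503 bp under 4-OHT, at percentiles of 3.93, 46.0, 34.9 and 29.9. The EtOH libraries thus lay on both sides of the 4-OHT libraries. Its 4 summits spread over 33 bp, the widest among the regions in all 4 lists.

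Region 15, from 96328273 to 96328765, was the one among the 4 regions in all 4 MEIS1 lists whose treatments did not overlap in peak length. Its peaks were 157 and 398 bp under EtOH, at percentiles of 0.0343 and 1.90, and so among the shortest calls of their lists. Under 4-OHT they were 409 and 475 bp, at percentiles of 38.5 and 21.9. The mean percentile was 0.966 ± 1.32 under EtOH and 30.2 ± 11.7 under 4-OHT (SD, n = 2 each), a difference of 29.2. The two-sided exact permutation p was 0.333, the smallest possible, and 0.889 after Benjamini-Hochberg adjustment over the 4 regions compared. Differences at regions 5, 8 and 10 were -23.3, -10.3 and 7.44, each with overlapping treatments (exact permutation p = 0.667, 0.667 and 1). Higher percentiles in both 4-OHT libraries than in both EtOH libraries were found at 13.8% of the 14539 regions with 1 peak in each MEIS1 list, and 1 of 4 in the window is too few to set apart from that share. The opposite order was found at 13.3% genome-wide and at 0 of 4 in the window. Over those regions the difference ran from -27.7 at the 5th to 27.2 at the 95th percentile. With EtOH percentiles of 0.0343 and 1.90, region 15 started at the floor of the scale and had almost no room to fall. The genome-wide values were not limited to regions that start so low, so they are not a like background for its difference. The nearest TGIF1 peak of any library was 273 kb from region 15.

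**Figure D3:**
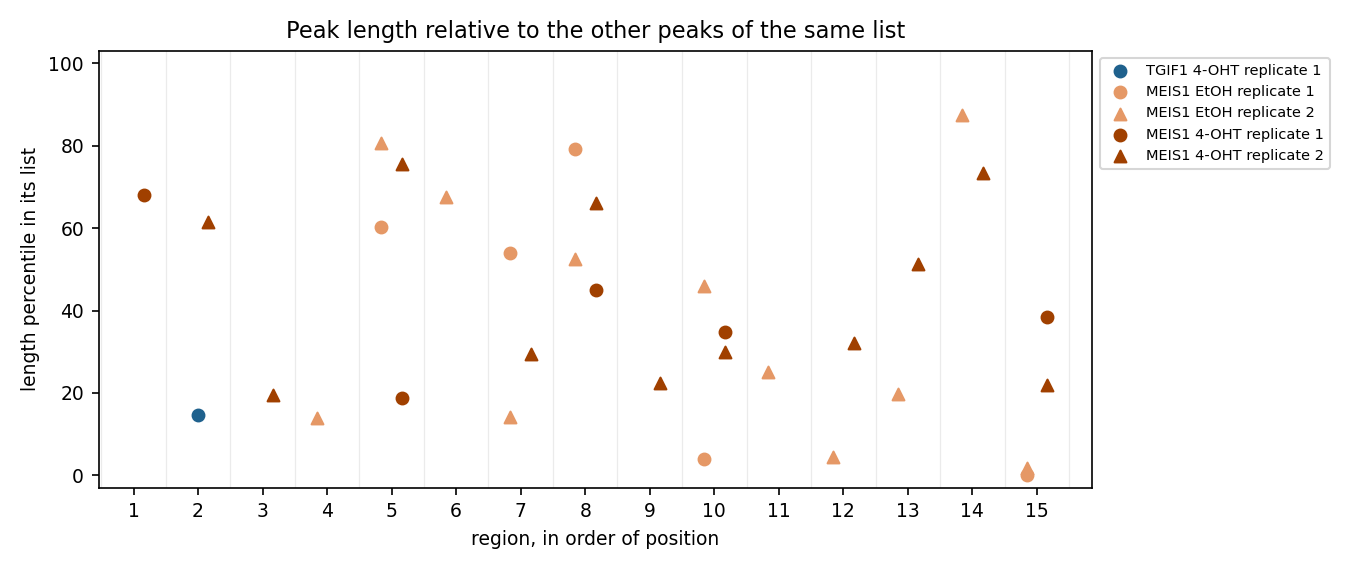
Length percentile of each of the 33 peaks within its own list, by region in order of position. Pale symbols are MEIS1 EtOH, dark brown symbols MEIS1 4-OHT and the blue symbol TGIF1 4-OHT, with circles for replicate 1 and triangles for replicate 2. Both EtOH peaks of region 15 sit at or below 1.90, under both 4-OHT peaks.

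Region 7, from 96146011 to 96146519, was in both MEIS1 EtOH libraries and in MEIS1 4-OHT replicate 2. Its peaks were 373 and 501 bp long under EtOH, at percentiles of 53.9 and 14.2, and 501 bp long under 4-OHT, at a percentile of 29.3. The MEIS1 4-OHT replicate 1 list, the shortest of the 4, had no peak there. Its 3 summits fell within 2 bp, from 96146243 to 96146245.

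Summits of MEIS1 lay close together at the recurrent regions. The range of MEIS1 summits was 29, 9, 33 and 14 bp at regions 5, 8, 10 and 15, beside a median of 28 bp (quartiles 16 and 48) over 14539 regions with 1 peak in each of 4 lists. The range of 2 bp at region 7 compared with a median of 32 bp (quartiles 18 and 58) over 9131 regions in 3 lists. At regions 12, 13 and 14 it was 17, 34 and 8 bp, beside a median of 19 bp over 15292 regions in 2 lists. MEIS1 EtOH replicate 1 gave the outermost summit at regions 5, 10 and 15.

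**Figure D4:**
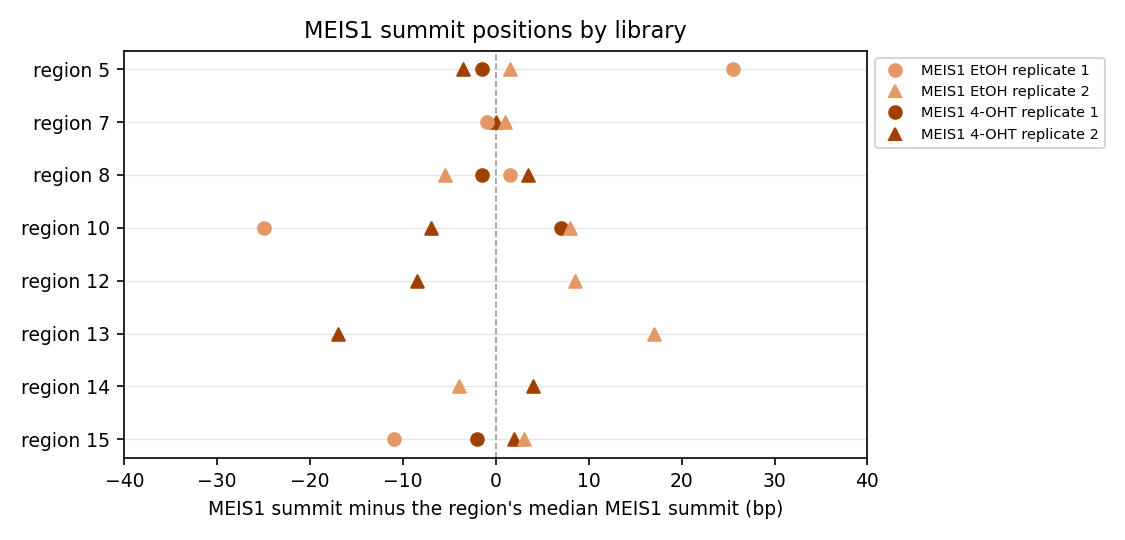
Position of each MEIS1 summit relative to the median MEIS1 summit of its region, in bp, for the 8 regions with more than 1 MEIS1 peak. Colours and symbols mark treatment and replicate, and all summits lie within 34 bp of one another at each region.

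Regions with MEIS1 in the longer, replicate 2 lists alone were found on both sides of the window. Regions 2, 3, 4, 6, 9 and 11 each had MEIS1 in 1 such list. Region 15, at the high end, was in all 4 MEIS1 lists. Regions 12, from 96181286 to 96181795, 13, from 96244818 to 96245393, and 14, from 96268481 to 96269477, were each in both replicate 2 libraries and in no replicate 1 library. Genome-wide 85.8% of the regions in 2 MEIS1 lists had this same pair. Region 14 held the longest peak of the window, 997 bp in MEIS1 EtOH replicate 2 (87.5th percentile) and 706 bp in MEIS1 4-OHT replicate 2 (73.3rd percentile), yet neither replicate 1 library called it. Region 12 was short in MEIS1 EtOH replicate 2, at 437 bp and the 4.47th percentile, and stood at 510 bp and the 32.1st percentile in MEIS1 4-OHT replicate 2. Region 13 stood at the 19.8 and 51.3 percentiles in the same order.

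The 7 regions with MEIS1 in a single list were split between treatments. Of these, region 3 under 4-OHT and region 4 under EtOH lay only 70 bp apart. Regions 4, 6 and 11 came from MEIS1 EtOH replicate 2, regions 2, 3 and 9 from MEIS1 4-OHT replicate 2 and region 1 from MEIS1 4-OHT replicate 1, while MEIS1 EtOH replicate 1 gave none. Genome-wide, 28.4, 58.2, 3.50 and 9.84% of such regions came from these lists in that order. Their peaks were 466 to 730 bp long (median 500 bp), at percentiles of 14.0 to 68.0 (median 25.1). The 16 peaks of the regions in all 4 lists had a median percentile of 41.7, with a wider range of 0.0343 to 80.7. Region 1, from 96010965 to 96011463, stood alone at the low end, 43.7 kb from region 2. It was called in MEIS1 4-OHT replicate 1 at 499 bp and the 68.0th percentile, and not in the longer list of its replicate.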

How the data were processed

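Peaks were deposited as 1 list per library with chromosome, start, end, length and summit. Per the submitters' processing notes, Bowtie 0.12.7 and the mm9 build were used, and per the file headers the MEIS1 4-OHT replicate 2 peaks came from MACS 1.4.2. For the remaining lists the caller, and for every list the threshold, control and filters, are not stated in the sources used here. The deposited lists hold no score or read number, so depth is unknown, and length ranks within a list stand where a score was planned.

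Groups and replicate numbers came from the sample titles. Start and end both belong to the peak, and summits are counted from the peak start. Peaks were merged at 1 bp of overlap. Shares carry exact (Clopper-Pearson, 95%) intervals, and groups were compared with two-sided exact permutation tests. The rule for regions given in full took those with both antibodies (region 2), those with TGIF1 EtOH (none), those in both MEIS1 libraries of 1 treatment and neither of the other (none), and the 5 in most lists (regions 5, 7, 8, 10 and 15). Other regions were named after their values were seen. The window and lists were chosen with earlier results of these data known. Motifs were planned but need the mm9 sequence and were not run. Overlap code was tested on simulated data and gave the same counts as bedtools 2.31.1 in 56 of 56 pairs of lists. Python 3.11.15, numpy 2.4.6, pandas 2.3.3, scipy 1.17.1 and matplotlib 3.10.9 were used.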

Additional observations from a re-analysis of the deposited data

How the results depend on the processing

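Counts in the window are small, and single libraries moved them. The TGIF1 peak number difference of 0.5 was 0 to 1 with single libraries left out, and 0 with the longer 50% of each list and with lists of equal length (592 peaks for TGIF1, 21173 for MEIS1). As a share of the list the difference of 0.412 per 10000 was 0 to 0.824 without single libraries, and 0 with both of those settings. Both settings keep the longest peaks, and the only TGIF1 peak stood at the 14.7th length percentile of its list. It had to drop out, so these values of 0 were fixed in advance and carry no further information. With the window widened by 50 kb at each end the differences were larger, 2.5 peaks and 1.38 per 10000 (exact permutation p = 0.333 for the number, the smallest possible). The MEIS1 peak number difference of 0 was -3 to 3 without single libraries, -0.5 with the longer 50% and 1 with lists of equal length. The MEIS1 share difference turned to -0.218 per 10000 without MEIS1 EtOH replicate 1 and to -0.565 with the longer 50%, was 0.472 with lists of equal length, and without single libraries it ran up to 0.403. In the widened window, which takes in the region at 95936681, 1 of 6 reproducible MEIS1 EtOH regions overlapped TGIF1 and 1 of 1 reproducible TGIF1 region overlapped MEIS1. The count of MEIS1 EtOH regions without a 4-OHT peak was 0 to 3 without single libraries and 3 of 11 with the union of replicates. The mirror count was 0 to 3, and 4 of 12 with the union. Settings that left no reproducible TGIF1 region in the window gave no value for its overlap with MEIS1. The cause of these changes was not tested.

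With a replicate block, libraries of the same number set against each other, the MEIS1 peak number difference stayed at 0 and the TGIF1 difference at 0.5, where sign flips of 2 pairs cannot give p below 0.5. Within replicate 1 the block gave 1 MEIS1 EtOH region without a 4-OHT peak and 1 in the mirror case, and within replicate 2 it gave 3 and 3. Nothing shows that the numbers pair the libraries. Presence in replicate 1 minus replicate 2 correlated between treatments at r = 0.134 over 15 regions, which share libraries of unequal list length.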
